A study of Mus musculus with 9 samples.

Results

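The 8 genes Jchain, Mzb1, Pou2af1, Derl3, Cd79a, Cd79b, Ms4a1 and Prdm1, which mark B cells or the antibody-secreting plasma cells that arise from them, were followed across 9 single-colour Agilent arrays of sorted mouse epithelial cells. They were found by gene name among the probes that are not controls, with older names of the same gene accepted (Igj for Jchain). The search gave 10 probes for 8 genes, of 41103 probes for 27558 genes on the array. All 9 samples came from C57BL/6 mice, and every sort gate left out cells stained for CD45, the surface protein shared by leukocytes, and cells taking up Fluorogold, a marker of dead cells. The kidney group held Epcam+ kidney epithelial cells, with 4 mice pooled in each of 3 replicates. The MHCIIhi group held small intestinal epithelial cells from the Epcamhi MHChi gate, and the MHCIIlo group those from the Epcamint MHCint gate, with 3 mice pooled in each of 3 replicates of either. Neither treatment nor age of the mice is given in the labels. As animals were pooled, the spread between arrays is that between pools, and p-values rest on it.

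Mature B cells carry a surface antibody joined to the signalling chains CD79A and CD79B, and the membrane protein CD20, encoded by Ms4a1. When a B cell becomes a plasma cell, the repressor Blimp-1, encoded by Prdm1, shuts down much of the B cell programme and the endoplasmic reticulum expands to make secreted antibody. In the small intestine most plasma cells lie beneath the epithelium and secrete IgA polymers held together by the J chain, which epithelial cells carry into the gut lumen with the polymeric immunoglobulin receptor.

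The 60-base probes of Jchain, Pou2af1, Derl3 and the receptor chain Cd79a are shown to let a reader place each signal on its transcript. Jchain, Pou2af1 and Derl3 were called between the intestinal groups, as was Mzb1, whose probe sequence is not shown. Sequences are as printed on the array, 5′ to 3′, from the scanner files, and positions follow the mm8 annotation of the array design. For Jchain, Pou2af1 and Derl3 the first 30 bases are given, and for Cd79a all 60. The Jchain probe used for the gene lies at chr5:89595455-89595514 and its other probe at chr5:89595625-89595684, both on the minus strand. The Pou2af1 probe lies at chr9:50992233-50992292 and the Derl3 probe at chr10:75339474-75339533, both on the plus strand. The Cd79a probe is placed over the 258 bases of chr7:24608094-24608351 on the plus strand, longer than the probe itself.
Jchain, probe used: ctgtactagtctttctcttaacctctcact
Jchain, other probe: gtaaatcctcatgtctgctcaaggagatat
Pou2af1: gtcttggctgcaggcatccaaacagatttc
Derl3: agccgtgtacagtggaggtaggtctgggac
Cd79a: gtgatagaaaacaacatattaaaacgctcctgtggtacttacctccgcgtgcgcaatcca

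The arrays differed in brightness. The 75th percentile of the signal was 599 to 771 on the kidney arrays, 214 to 372 on the MHCIIhi arrays and 100.8 to 185 on the MHCIIlo arrays, and 71.2 to 73.2%, 60.9 to 64.7% and 51.0 to 57.3% of spots in those groups were well above background by the scanner software's test. A level is the log2 signal less that of the array's 75th percentile, so it stands relative to the other probes of that array and not per cell. A slide carried the 3 MHCIIlo arrays together with MHCIIhi 3, while MHCIIhi 1 and 2 occupied the next and all kidney arrays the last, so that kidney and slide cannot be told apart. The sorted cells were compared with their labels by the epithelial gene Epcam, which stood at 2.49 ± 0.59 in kidney, 5.04 ± 0.24 in MHCIIhi and 5.29 ± 0.21 in MHCIIlo (SD of 3 arrays). Its RNA was thus not higher in the Epcamhi gate than in the Epcamint gate. The summed linear level of 10 kidney tubule markers was 1053 to 1324 in kidney, 37.2 to 51.6 in MHCIIhi and 48.9 to 73.1 in MHCIIlo. A second sum took Epcam, the CD45 gene Ptprc, the MHC class II genes H2-Ab1 and H2-Aa, and the invariant chain gene Cd74. It was 6.75 to 12.5 in kidney, 214 to 253 in MHCIIhi and 324 to 421 in MHCIIlo, thus lower in the group gated as high. The sum reads RNA of several kinds of gene, whereas the gates read surface protein. The median difference of these 5 genes in MHCIIhi minus MHCIIlo was -0.55. Ptprc, the gene of CD45, was nevertheless well above background on all 9 arrays, at -0.98 ± 0.20 in kidney, -2.43 ± 1.0 in MHCIIhi and -1.51 ± 0.33 in MHCIIlo (SD of 3 arrays). The MHCIIhi minus MHCIIlo difference of Ptprc was -0.92 ± 0.44 (SE; limma adjusted p = 0.107).

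Between the intestinal groups, Jchain and Mzb1, both tied to antibody assembly, differed most among the 8 genes. Jchain, Mzb1, Pou2af1 and Derl3 had lower levels in the MHCIIhi arrays, by 31.5-fold for Jchain and 2.88-fold for Derl3, while Cd79a, Cd79b, Ms4a1 and Prdm1 did not reach the call of limma's adjusted p below 0.05 together with a log2 difference of at least 1. Thus 4 of 8 genes were called, as were 31% of the 19366 genes tested. All 4 were lower in MHCIIhi, against 16.1% of all genes, and 0 of 8 were higher, against 15% (0 of 8 also at an unadjusted p under 0.05 in limma). All 8 genes passed the filter on dim probes, which keeps a gene measured on all arrays of any 1 group. Ms4a1 passed it through MHCIIhi alone. For 5 of the 8 the groups did not overlap, with MHCIIhi below, as for 32.8% of all genes tested (and 23.8% with MHCIIhi above). The median difference was -1.25 over the 8 genes and -0.24 over all genes tested. In these sorted bulk samples, fewer cells of a type and less RNA per cell cannot be told apart.

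**Figure D1:**
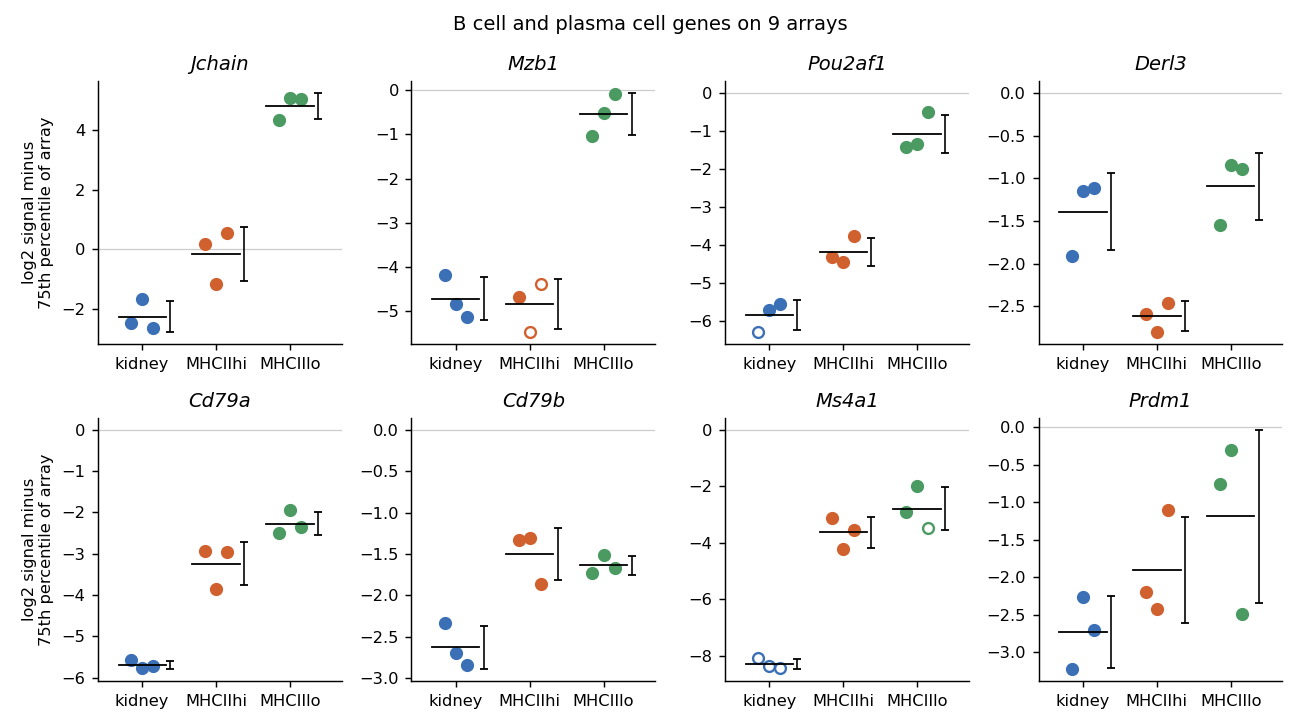
Level of each of the 8 genes on the 9 arrays (y axis, log2 signal relative to the 75th percentile, a separate scale in each panel), with kidney in blue, MHCIIhi in orange and MHCIIlo in green. Points are arrays, open where the probe was not well above background, bars are means and brackets are SD (n = 3). Jchain, Mzb1 and Pou2af1 separate MHCIIlo from both other groups, Ms4a1 and Cd79a separate kidney from both intestinal groups, and Derl3 is lowest in MHCIIhi.

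Jchain encodes the J chain that joins IgA and IgM units into polymers. Its level was -2.49, -1.67 and -2.64 on the kidney arrays, 0.17, -1.17 and 0.54 on the MHCIIhi arrays and 4.33, 5.09 and 5.06 on the MHCIIlo arrays. The 3 groups did not overlap, and within MHCIIhi array 2 was the low one. The unscaled signals were 107 to 209 in kidney, 166 to 360 in MHCIIhi and 3352 to 4124 in MHCIIlo. Jchain differed in MHCIIhi minus MHCIIlo by -4.98 ± 0.46 (SE; limma adjusted p = 0.000264). When every probe was fitted on its own, the other Jchain probe gave -5.03 ± 0.58 for this comparison. It gave -1.89 ± 0.58 for kidney minus MHCIIhi and -6.92 ± 0.58 for kidney minus MHCIIlo, so the pair of probes ordered the groups alike.

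Mzb1 encodes a chaperone of the endoplasmic reticulum that helps antibody assembly in marginal zone B cells and plasma cells. Its level was -4.17, -4.84 and -5.12 on the kidney arrays, -4.67, -5.47 and -4.38 on the MHCIIhi arrays and -1.03, -0.51 and -0.08 on the MHCIIlo arrays. Kidney and MHCIIhi overlapped, and MHCIIlo stood above both. The probe, on chromosome 18, was the only one of the 10 printed repeatedly, at 10 spots per array, of which 8 to 10 were usable after outlier flags. In MHCIIhi, 8 of 10 spots were well above background on array 1, 0 of 10 on array 2 and 4 of 9 on array 3. Only array 1 therefore counted as measured, and MHCIIhi was at least 18.2-fold lower than MHCIIlo (limma adjusted p = 0.000231). That bound takes, on each dim array, the higher of the gene's own signal and the lowest signal of a probe well above background.

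**Figure D2:**
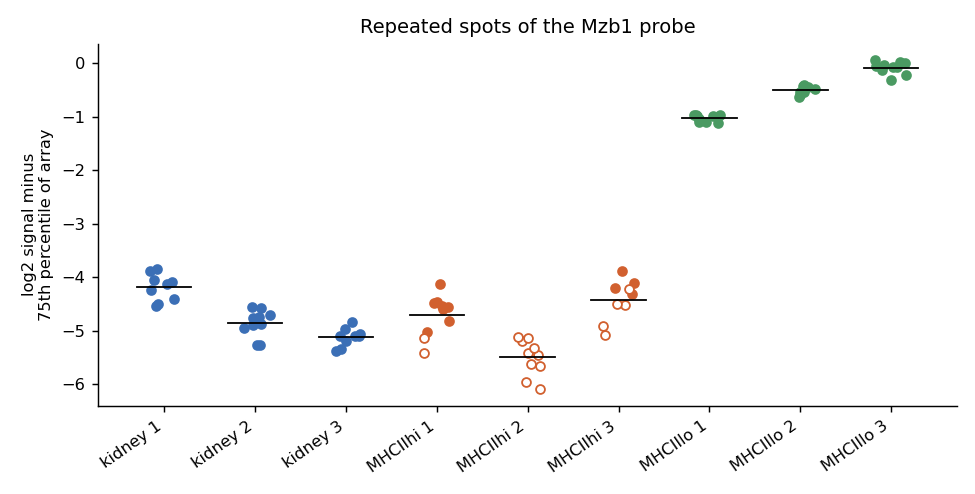
Repeated spots of the Mzb1 probe on each array (x axis, kidney, then MHCIIhi, then MHCIIlo) as levels on the log2 scale (y axis). Filled points were well above background, open points were not, and bars are the mean of an array's spots. The SD between spots of an array was 0.17 to 0.25 in kidney, 0.33 to 0.38 in MHCIIhi and 0.06 to 0.11 in MHCIIlo, a spread within arrays, and all spots of the MHCIIlo arrays lie above those of the other groups.

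Derl3 encodes a derlin, a membrane protein of the pathway that removes misfolded proteins from the endoplasmic reticulum. Its level was -1.92, -1.15 and -1.11 on the kidney arrays, -2.59, -2.81 and -2.46 on the MHCIIhi arrays and -1.55, -0.84 and -0.89 on the MHCIIlo arrays. Kidney and MHCIIlo overlapped and MHCIIhi lay below both without overlap, as for no other of the 8 genes. Before scaling, the signals were 159 to 356 in kidney, 38.9 to 53.3 in MHCIIhi and 54.3 to 67.7 in MHCIIlo. The intestinal groups thus almost touched and kidney lay above both, unlike the scaled levels. The MHCIIhi minus MHCIIlo difference was -1.52 ± 0.28 (SE; limma adjusted p = 0.00361). With slide as a fixed block, which leaves MHCIIhi 3 against the 3 MHCIIlo arrays, it was -1.37 and the call ended (limma adjusted p = 0.0751).

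Pou2af1 encodes the coactivator OCA-B, which works with octamer-binding factors on immunoglobulin promoters. Its level was -6.30, -5.71 and -5.55 on the kidney arrays, -4.33, -4.46 and -3.78 on the MHCIIhi arrays and -1.41, -1.34 and -0.50 on the MHCIIlo arrays. These scaled levels formed 3 separate steps, although kidney array 1 was not well above background. Before scaling, the signals were 7.60 to 16.5 in kidney, 15.6 to 16.9 in MHCIIhi and 48.0 to 71.1 in MHCIIlo. Kidney and MHCIIhi thus overlapped, unlike the scaled levels. Between the intestinal groups it differed by -3.10 ± 0.32 (SE; limma adjusted p = 0.000347), or 8.60-fold lower in MHCIIhi.

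Prdm1, the gene of the repressor Blimp-1, is active in plasma cells and also in T cells and some epithelial cells. Its level was -3.22, -2.26 and -2.71 on the kidney arrays, -2.19, -2.43 and -1.10 on the MHCIIhi arrays and -0.76, -0.31 and -2.50 on the MHCIIlo arrays. The groups overlapped, with MHCIIhi 3 the highest array of its group and MHCIIlo 3 the lowest of its own. The MHCIIhi minus MHCIIlo difference was -0.72, with a 95% interval of 1.31 to either side, and was not called (limma adjusted p = 0.320). Without MHCIIlo 3 it was -1.37 and was called (limma adjusted p = 0.0452). Without MHCIIlo 2, MHCIIhi 2 or MHCIIlo 1 it was -0.28, -0.46 or -0.50, without MHCIIhi 3 it was -1.12, none of them called, and with slide as a fixed block it was 0.090.

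Cd79a encodes the alpha signalling chain of the B cell receptor. Its level was -5.58, -5.77 and -5.73 on the kidney arrays, -2.93, -3.85 and -2.96 on the MHCIIhi arrays and -2.51, -1.95 and -2.35 on the MHCIIlo arrays. All arrays were well above background, and MHCIIhi lay below MHCIIlo without overlap. The difference of -0.97 ± 0.27 (SE; limma adjusted p = 0.0181) fell just short of the size needed for a call, and leaving out MHCIIhi 1, MHCIIhi 3, MHCIIlo 1 or MHCIIlo 3 carried it past (-1.13, -1.12, -1.09 and -1.01). Leaving out MHCIIhi 2 or MHCIIlo 2 moved it the other way (-0.67 and -0.81). Before scaling, the signals of the intestinal groups overlapped, at 25.9 to 42.1 in MHCIIhi and 19.7 to 32.6 in MHCIIlo.

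Cd79b encodes the beta signalling chain, the partner of CD79A. Its level was -2.34, -2.70 and -2.85 on the kidney arrays, -1.34, -1.31 and -1.86 on the MHCIIhi arrays and -1.73, -1.51 and -1.67 on the MHCIIlo arrays. The intestinal groups overlapped and kidney lay below both. The MHCIIhi minus MHCIIlo difference was 0.14, with a 95% interval of 0.48 to either side (limma adjusted p = 0.610), and its sign turned with normexp background correction (-0.16) and with slide as a fixed block (-0.22). Before scaling, the signals were 102 to 118 in kidney, 58.8 to 150.2 in MHCIIhi and 31.6 to 55.9 in MHCIIlo, so that MHCIIhi lay above MHCIIlo and overlapped kidney, unlike the scaled levels.

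Ms4a1 encodes CD20, which B cells carry and plasma cells lose. Its level was -8.08, -8.35 and -8.42 on the kidney arrays, where the probe was well above background on 0 of 3. It was -3.13, -4.23 and -3.53 on the MHCIIhi arrays and -2.91, -1.98 and -3.48 on the MHCIIlo arrays, the last of these not well above background. The intestinal groups overlapped. The MHCIIhi minus MHCIIlo difference was -0.84, with a 95% interval of 0.90 to either side (limma adjusted p = 0.103), and its size moved with single arrays. It was -1.18 and was called without MHCIIlo 3 (limma adjusted p = 0.0449), but -0.44 without MHCIIlo 2 and -0.54 without MHCIIhi 2. The other Ms4a1 probe was well above background on 1 array alone, MHCIIhi 3, and was not tested.

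**Figure D3:**
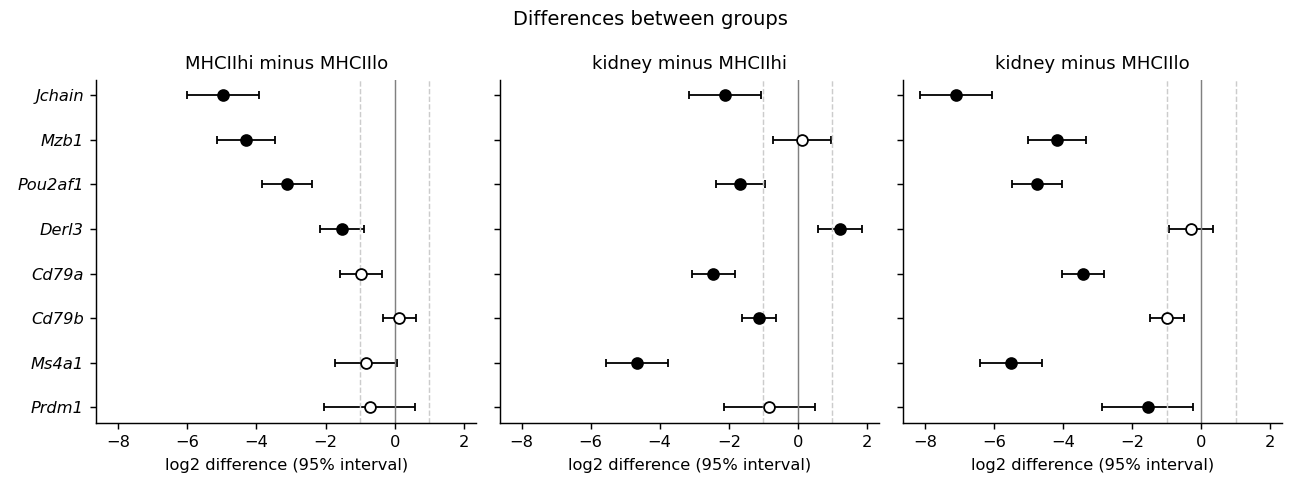
Log2 differences of the 8 genes (rows) in MHCIIhi minus MHCIIlo, kidney minus MHCIIhi and kidney minus MHCIIlo (x axes, with 95% intervals). Filled points were called, open points were not, and dashed lines mark a log2 difference of 1 in either direction. Jchain, Mzb1, Pou2af1 and Derl3 are called in the first panel, and Derl3 is the only gene called higher in kidney, in the second.

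Between kidney and MHCIIhi, 6 of the 8 genes were called, as were 48.6% of all genes tested. In kidney 5 were lower, against 23% of all genes, and 1 was higher, against 25.6%. For 5 genes each kidney array lay below each MHCIIhi array, as for 36.3% of all genes tested, and for 1 above, as for 36%. Ms4a1 and Cd79a showed the largest differences. Ms4a1 was at least 5.10-fold lower in kidney (limma adjusted p = 1.12e-05). It passed the filter on dim probes through MHCIIhi alone, which favours a lower kidney level. Cd79a was 5.46-fold lower (-2.45 ± 0.27, SE; limma adjusted p = 5.85e-05) and Cd79b 2.18-fold lower (-1.13 ± 0.21, SE; limma adjusted p = 0.00150), although with normexp Cd79b fell just short of the call. Jchain was 4.33-fold lower (-2.12 ± 0.46, SE; limma adjusted p = 0.00330), and Pou2af1 was at least 2.82-fold lower with 2 of 3 kidney arrays measuring it (limma adjusted p = 0.00162). Before scaling, the signals of kidney and MHCIIhi overlapped for Jchain, Pou2af1 and Cd79b.

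Derl3 went the other way, 2.33-fold higher in kidney than in MHCIIhi (1.22 ± 0.28, SE; limma adjusted p = 0.00432), but the call ended with normexp background correction (0.51) and with the authors' value table (0.95). Mzb1, measured on 1 of 3 MHCIIhi arrays, was not called (limma adjusted p = 0.776), and no size is given for a difference from a group that is mostly not above background. Prdm1 differed by -0.83, with a 95% interval of 1.31 to either side (limma adjusted p = 0.238). The median difference in kidney minus MHCIIhi was -1.39 over the 8 genes and -0.03 over all genes tested.

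Between kidney and MHCIIlo, 6 of the 8 genes were called, as were 57.6% of all genes tested. All 6 were lower in kidney, against 27.9% of all genes, and 0 were higher, against 29.7% (0 of 8 also at an unadjusted p under 0.05 in limma). For 6 genes each kidney array lay below each MHCIIlo array, as for 38.7% of all genes tested, and for 0 above, as for 39.6%. Jchain was 136-fold lower in kidney (-7.09 ± 0.46, SE; limma adjusted p = 1.85e-06) and Mzb1 was lower by a log2 difference of -4.17 ± 0.37 (SE; limma adjusted p = 1.23e-05). Pou2af1 was at least 24.3-fold lower (limma adjusted p = 2.17e-06). These 3 genes are the ones that also separated the intestinal groups most.

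In the same comparison Cd79a was 10.7-fold lower in kidney (limma adjusted p = 6.05e-06), and Ms4a1 was at least 9.14-fold lower, with 2 of 3 MHCIIlo arrays measuring it (limma adjusted p = 3.34e-06). With the filter on dim probes set on the compared groups alone, Ms4a1 was not tested and 5 of the 8 genes were called. Cd79b, at -0.99 ± 0.21 (SE; limma adjusted p = 0.00253), missed the call by its size alone, and was called without MHCIIlo 1 (-1.04), MHCIIlo 3 (-1.01) or kidney 1 (-1.13). Prdm1 was called 2.92-fold lower although arrays overlapped (limma adjusted p = 0.0372), but the call ended without MHCIIlo 1 (-1.33), MHCIIlo 2 (-1.10), kidney 1 (-1.30) or kidney 3 (-1.56), with the replicate block (-1.54) and with slide as a random block (-1.37). Before scaling, the Prdm1 signals were 64.2 to 138 in kidney and 17.9 to 109 in MHCIIlo, with kidney 2 and kidney 3 above every MHCIIlo array. Those of Cd79b were 102 to 118 in kidney and 31.6 to 55.9 in MHCIIlo, so that kidney lay above. For both genes this is unlike the scaled levels. Derl3 differed by -0.30, with a 95% interval of 0.63 to either side (limma adjusted p = 0.350). The median difference in kidney minus MHCIIlo was -3.80 over the 8 genes and 0.03 over all genes tested. Each group entered 2 of the 3 comparisons, so they are not independent of one another.

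Immunoglobulin genes encode the antibody chains themselves, and their names on this array start with Igh, Igk or Igl. Of 34 such names, 27 were tested. Of these, 26 were called lower in MHCIIhi than in MHCIIlo, against 16.1% of all genes tested. Called higher were 0, against 15% (0 also at an unadjusted p under 0.05 in limma). The names' median difference was -4.94, in a range of -7.66 to -1.40. Of the 27, 13 were measured on every MHCIIhi array and 5 on none. Names not measured on every MHCIIhi array passed the filter on dim probes through another group only, which favours a lower MHCIIhi level for them. Because many heavy and light chain segments are almost identical in sequence, a probe may read several of them and each name is uncertain. The Igh probe stood at 1.53 ± 0.81 in kidney, 4.10 ± 0.88 in MHCIIhi and 9.04 ± 0.51 in MHCIIlo (SD of 3 arrays). Ighm, the constant region of IgM, showed the smallest called difference, -1.40 ± 0.44 (SE; limma adjusted p = 0.0271). Igkv10-95, a kappa variable segment measured on 1 of 3 MHCIIhi arrays, was at least 67.7-fold lower in MHCIIhi. Against kidney, 12 of the 27 were lower in kidney than in MHCIIhi (23% of all genes tested) and all 27 lower in kidney than in MHCIIlo (27.9%). In either comparison 0 were higher, against 25.6% and 29.7% of all genes (0 also at an unadjusted p under 0.05 in limma). Of the 27, 13 were measured on every kidney array and 8 on none, so the same limit applies.

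The summed linear levels of the 34 names were 2.69 to 7.35 in kidney, 10.7 to 33.3 in MHCIIhi and 418 to 864 in MHCIIlo. The sums over the 8 genes were 0.840 to 1.20 in kidney, 1.37 to 2.72 in MHCIIhi and 22.5 to 37.4 in MHCIIlo. In both sums the groups kept the same order without overlap, and MHCIIhi 2 was the lowest intestinal array for the immunoglobulin names. The brightest probes weigh most in such sums, for the 8 genes that of Jchain in the intestinal groups and that of Derl3 in kidney. Pigr, the receptor that carries IgA polymers across the epithelium, stood at -0.67 ± 0.17 in kidney, 5.91 ± 0.08 in MHCIIhi and 6.11 ± 0.21 in MHCIIlo (SD of 3 arrays). Its MHCIIhi minus MHCIIlo difference was -0.21 ± 0.17 (SE; limma adjusted p = 0.345) and was not called.

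Of 17 other plasma cell genes on the array, 11 were tested. By the same call MHCIIhi was below MHCIIlo for 4 of these, against 16.1% of all genes tested, and above it for 0, against 15%. At an unadjusted p under 0.05 in limma 6 were lower and 3 higher, the latter being Pim2, Eaf2 and Glcci1. The levels of these 3 were -1.26, 0.06 and 0.31 in MHCIIhi and -2.10, -0.49 and -0.46 in MHCIIlo. Tram2, a membrane protein tied to protein translocation, fell by 1.91 on the log2 scale. Ell2, an elongation factor that favours secreted antibody transcripts, fell by 1.41 and Ccr9, a receptor that draws lymphocytes to the small intestine, by 1.28. Slamf7, a surface receptor of plasma cells and other lymphocytes, was at least 2.97-fold lower, and 1 of 3 MHCIIhi arrays measured it. Slamf7 passed the filter on dim probes through MHCIIlo alone, which favours a lower MHCIIhi level. Tram2, Ell2 and Ccr9 were measured on every kidney array too. Xbp1 (-0.07 ± 0.21, SE) and Sdc1 (-0.17 ± 0.18, SE), which epithelial cells also express, were not called. Irf4, a regulator of plasma cell formation, was well above background on 0 of the intestinal arrays. The list's median was -0.51.

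Of 28 other B cell genes, 16 were tested. In MHCIIhi relative to MHCIIlo 4 of these fell, against 16.1% of all genes tested, and 2 rose, against 15%. Cr2, a complement receptor, and Vpreb3, a partner of the immature B cell receptor, fell by 1.40 and 1.39 on the log2 scale. Both were measured on every kidney array, and Cr2 stood highest there (-2.44, with -3.04 in MHCIIlo and -4.45 in MHCIIhi). Ebf1 and Fcmr were also called lower, but were well above background on 0 of the intestinal arrays. Cd24a (2.22 ± 0.23, SE) and Blnk (1.90 ± 0.29, SE) were higher in MHCIIhi, and both were measured on every kidney array too. Pax5, Cd180, Bank1, Fcer2a, Fcrl1, Cxcr5, Tnfrsf13c and Pou2f2 were well above background on 0 of the 9 arrays. The list's median was -0.30, close to that of all genes tested.

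The 27 secretory pathway genes, which serve folding, translocation and quality control in the endoplasmic reticulum of any secretory cell, moved both ways. In MHCIIhi minus MHCIIlo the median was 0.02, and at an unadjusted p under 0.05 in limma 7 were lower and 5 higher. By the call, 1 was lower, against 16.1% of all genes tested, and 4 were higher, against 15%. Those higher were Bhlha15, a transcription factor of secretory cells (2.18 ± 0.41, SE), the prolyl isomerase gene Fkbp11 (1.77 ± 0.26) and the disulfide isomerase genes Txndc5 (1.71 ± 0.47) and Pdia6 (2.14-fold). Creb3l2, a membrane-bound regulator of secretory capacity, fell by 1.35. Derl3 was thus called in the direction of Creb3l2 and opposite to those 4 genes, in a list that moved both ways. In kidney, 9 of the 27 were lower than in MHCIIhi, against 23% of all genes tested, and 1 was higher, against 25.6%. Compared with MHCIIlo, 10 were lower in kidney, against 27.9% of all genes, and 3 higher, against 29.7%. Beside this list, the summed level of 10 goblet cell markers was 1.33 to 1.58 in kidney, 1203 to 2192 in MHCIIhi and 442 to 997 in MHCIIlo. That of 8 Paneth cell markers was 16.4 to 24.9 in kidney, 208 to 287 in MHCIIhi and 37.3 to 112 in MHCIIlo. Both are secretory cells of the epithelium, higher in MHCIIhi by these sums, and their part in the list's differences was not tested.

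**Figure D4:**
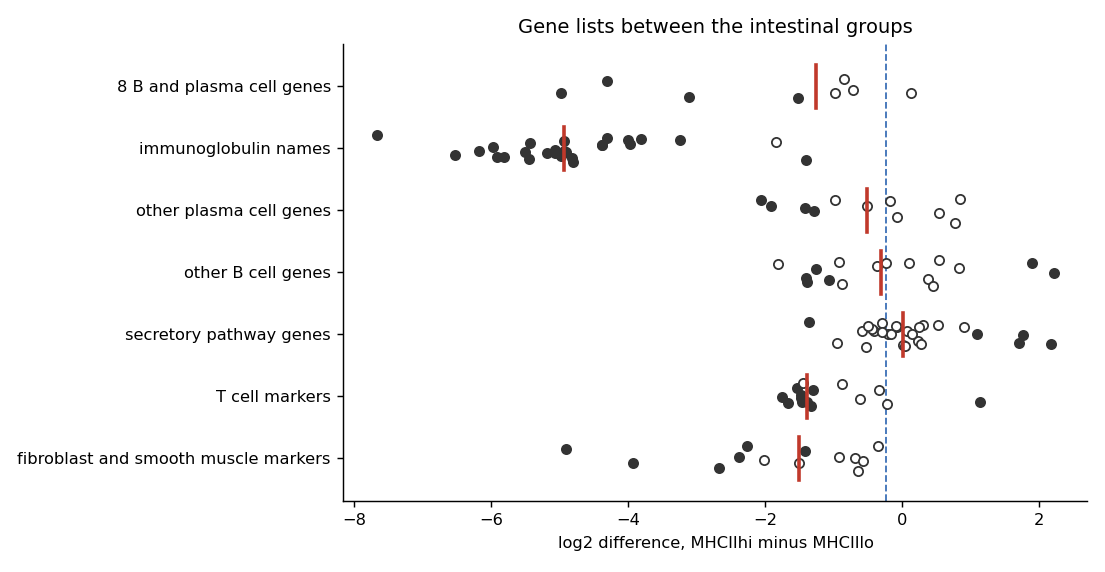
Log2 difference in MHCIIhi minus MHCIIlo (x axis) of each tested gene in 7 gene lists (rows). Filled points were called, open points were not, red bars are list medians and the dashed line is the median of all genes tested, -0.24. The immunoglobulin names lie furthest to the left with a median of -4.94, and the secretory pathway genes spread around 0.02.

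Markers of other cells moved between the same groups. Of all genes tested, 16.1% were called lower in MHCIIhi than in MHCIIlo and 15% higher. The summed level of 19 T cell markers was 2.77 to 3.26 in kidney, 5.95 to 9.77 in MHCIIhi and 14.9 to 24.7 in MHCIIlo. Among 15 tested, MHCIIhi was lower for 9 and higher for 1, Cd3e was well above background on all 9 arrays, and Cd247, Trat1 and Cd160 were so on none. The summed level of 15 fibroblast and smooth muscle markers was 24.8 to 39.9 in kidney, 29.996 to 34.6 in MHCIIhi and 52.4 to 75.7 in MHCIIlo. Among 13 tested, MHCIIhi was lower for 6 and higher for 0 (0 also at an unadjusted p under 0.05 in limma), and Pdgfra was well above background on none of the arrays. The summed level of 17 myeloid markers was 3.44 to 7.40 in kidney, 101 to 176 in MHCIIhi and 18.2 to 53.5 in MHCIIlo. In the intestinal groups that sum is mostly Lyz2, a lysozyme gene, which was 5.18-fold higher in MHCIIhi, whereas the list's median difference was -0.80, with 5 of 13 tested genes lower in MHCIIhi and 2 higher. Cx3cr1 was measured on none of the arrays. The summed level of 12 enterocyte markers was 12.3 to 31.5 in kidney, 1064 to 2437 in MHCIIhi and 3540 to 5274 in MHCIIlo. Enterocytes are the absorptive epithelial cells. Among the 12, limma called 11 lower and 0 higher in MHCIIhi, with 0 higher also at an unadjusted p under 0.05, and the median was -1.74. The part of these cells in the differences of the 8 genes was not tested.

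Within the slide that held both intestinal groups, MHCIIhi 3 stood against MHCIIlo 1 to 3. There Jchain differed by -4.28 (limma adjusted p = 0.00859) and Pou2af1 by -2.69 (limma adjusted p = 0.0120), and both kept their call. So did Mzb1 (limma adjusted p = 0.00753), but the probe did not count as measured on MHCIIhi 3, so its size there is not given. Cd79a differed by -0.69 and Ms4a1 by -0.74 and neither was called. The single MHCIIhi array is assumed to vary like the others in that fit.

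Over the 9 arrays, the level of Jchain had a Pearson correlation of 0.98 with Pou2af1, 0.94 with Mzb1, 0.89 with Cd79a and 0.81 with Ms4a1. It was 0.69 with Prdm1, 0.57 with Cd79b and 0.41 with Derl3. Cd79a and Ms4a1, both lowest in kidney, had 0.98. These values describe 3 clusters of 3 arrays, which share group and slide, and mostly restate the group means. A search took 14618 other genes tested that carry RefSeq names, without immunoglobulin names, predicted genes and most clone names. Immunoglobulin genes could therefore not appear in it. Within it, those most like Jchain were Tmem234 and C77080 (0.99 each), Fbxl22 (0.99), Cdk5rap3 (0.99), Nrbp1 (0.99) and Tbc1d20 (0.99). Their differences were far smaller than that of Jchain, between -1.14 (Fbxl22) and -0.58 (Tmem234) in MHCIIhi minus MHCIIlo.

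Because Derl3 alone stood lowest in MHCIIhi without overlap, its promoter was read from RefSeq (GRCm38.p6), 250 bases before the gene start at chr10:75893148-75893397 on the plus strand. Promoters of 5 of the 8 genes were matched by symbol. Capitals mark a match, on the opposite strand, to the endoplasmic reticulum stress response element, searched on both strands as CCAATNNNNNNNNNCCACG, a motif that contains the shorter CCAAT box.
Derl3, promoter: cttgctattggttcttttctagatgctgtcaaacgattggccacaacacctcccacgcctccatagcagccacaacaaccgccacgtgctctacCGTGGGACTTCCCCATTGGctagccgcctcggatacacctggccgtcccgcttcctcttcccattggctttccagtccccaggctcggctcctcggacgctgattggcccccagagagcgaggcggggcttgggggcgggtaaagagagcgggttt
The match ends 137 bases before the gene start. It was held by 37 of 32851 promoter entries (0.113%), among them 1 of the 5 matched here. Counted by gene, 6 of 24 secretory pathway genes, with 31 entries, held it (Creld2, Dnajc3, Hsp90b1, Hspa5, Pdia6 and Syvn1). The element was chosen after the sequences were seen, so its presence in Derl3 and its rarity are no test. Pdia6 and Derl3 both held the element and were called in opposite directions between the intestinal groups. The octamer ATGCAAAT, the motif of the factors that the Pou2af1 protein joins, was held by 526 promoters (1.60%) and by 0 of the 5, which says only that these letters are not in that window.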

How the data were processed

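Cy3-labelled RNA of 9 pools was hybridised to single-colour Agilent arrays, and the file headers name Agilent Feature Extraction 10.5.1.1 as the scanner software. What the authors deposited for each spot is a linear intensity from which that software had subtracted background, with no normalization between arrays. The authors' deposited value table also holds intensity, and every column matched the scanner signal over its array median, so that column medians were 1. The steps behind that table are not stated in the labels or headers.

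Control spots and outlier-flagged spots were left out, and spots of a probe averaged. The 75th percentile was taken over non-control probes. A probe was measured on an array where at least 50% of its spots were well above background. The probe with the highest mean represented its gene, which was kept if all arrays of any 1 group measured it (19366 genes). Names came from probe accessions matched to RefSeq (24339 of 41103 probes) or from the file. A model of group was fitted across the arrays with limma 3.58.1 (R 4.3.3 and version 1.17.8 of the package data.table), and p-values were adjusted by Benjamini-Hochberg over all genes. The code was tested on simulated data. Figures were drawn in Python 3.11.15 (matplotlib 3.10.9, pandas 2.3.3). With 3 arrays in a group, precision is limited.

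The 8 genes and all lists were chosen with earlier results of these data known, and the promoter element was chosen after the sequences were seen. Named genes were the 8 genes, Ptprc, Epcam and Pigr, and up to 4 immunoglobulin names. Others were called genes of the other B cell, other plasma cell and secretory lists with the largest differences (at most 6 per direction). The 6 genes most correlated with Jchain were taken with immunoglobulin names left out. Xbp1, Sdc1, Irf4, Pim2, Eaf2, Glcci1, H2-Ab1, H2-Aa, Cd74 and the list genes named as not measured were added after their values were seen. The results of some list genes are not reported here. Alternatives were quantile normalization, normexp background correction with offset 50, the authors' table, other filters on dim probes, the mean of a gene's probes, the replicate number or slide as a block, leaving out each array and, chosen after seeing the data, every probe fitted on its own.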

Additional observations from a re-analysis of the deposited data

How the results depend on the processing

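The calls of Jchain, Mzb1 and Pou2af1 between MHCIIhi and MHCIIlo held under all 18 alternatives, with log2 differences of -5.32 to -4.28, -4.55 to -2.01 and -3.31 to -1.60. Those of Mzb1 are fitted values against a group mostly not above background, not measured sizes. The smallest for Mzb1 and Pou2af1 came with normexp background correction, which shrinks dim probes. Derl3 ranged from -1.75 to -1.04 and lost its call with slide as a fixed block, and Cd79a was called in 4 of 18. Of the 8 genes, 3 to 7 were called over the alternatives, and leaving out 1 array gave 4 to 7, with 7 without MHCIIlo 3. In kidney minus MHCIIhi 4 to 6 were called and in kidney minus MHCIIlo 5 to 7. Cd79b in kidney minus MHCIIlo was called under 7 of 17 alternatives, among them quantile normalization (-1.24).

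The sign turned for 3 values, none of them called where it turned. The fitted Mzb1 value in kidney minus MHCIIhi, likewise no measured size, was -0.20 with quantile normalization, -0.75 with normexp, -0.15 with the authors' table, -0.18 without MHCIIhi 2 and -0.14 without kidney 1, in a range of -0.18 to 0.36 with 1 array left out. Cd79b in MHCIIhi minus MHCIIlo was -0.16 with normexp and -0.22 with slide as a fixed block, and Prdm1 was 0.090 with that block. The cause was not tested. Over all genes, 6008 calls in MHCIIhi minus MHCIIlo became 2871 with normexp, 1652 with slide as a fixed block and 4165 to 8040 with 1 array left out. In kidney minus MHCIIlo, 11148 became 17192 with no filter on dim probes, which tests more genes.

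Replicate numbers did not pair the arrays: deviations of same-numbered MHCIIhi and MHCIIlo arrays correlated at 0.19, -0.35 and 0.28. With the replicate block, 4 of the 8 genes were called in MHCIIhi minus MHCIIlo, 6 in kidney minus MHCIIhi and 5 in kidney minus MHCIIlo, where Prdm1 lost its call (adjusted p = 0.0614 in limma). Over all genes the block gave 5943, 9368 and 11122 calls. Dim signal limits Mzb1 in MHCIIhi and Ms4a1 and Pou2af1 in kidney, whose folds are bounds.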
